A study of Mus musculus with 6 samples.

Results

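The *Ifit* genes code for the interferon-induced proteins with tetratricopeptide repeats. They were chosen by name as the 6 rows *Ifit1*, *Ifit2*, *Ifit3*, *Ifit3b*, *Ifit1bl1* and *Ifit1bl2* of a table of 22248 genes. They had been singled out because their RNA was known to differ between the genotypes in these libraries, so the fold changes of the 6 genes are given as a description, with no test. The table holds total RNA of unstimulated bone-marrow-derived macrophages (BMDMs), cultured from marrow cells for a week in medium with macrophage colony-stimulating factor. The mice were C57BL/6, and 3 libraries came from the control genotype Lyz2cre and 3 from the CITED2-deficient genotype Cited2 fl/fl:Lyz2cre. The labels give postnatal week 10, whereas the methods of the study give a younger age. By the methods of the study, both groups carried a single *Lyz2* Cre allele, and in the CITED2-deficient mice both *Cited2* alleles were also floxed. Cre made from the *Lyz2* locus acts in myeloid cells, so other cells of the culture would keep *Cited2*. CITED2 is a transcriptional co-regulator that the study examined as a brake on inflammatory genes in resting macrophages.

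IFIT proteins are cytoplasmic proteins built from repeated helix pairs that form a groove for RNA or for other proteins. IFIT1 recognizes foreign RNA by its capped end, where a methyl group that host messages carry is missing. IFIT proteins also bind the translation initiation factor eIF3. Their genes are among those that type I interferon induces most, through the factor ISGF3, which holds STAT2 and IRF9 and binds an interferon-stimulated response element (ISRE) near the gene start, and through interferon regulatory factors. In mice the family lies side by side on chromosome 19, where *Ifit3b*, *Ifit1bl1* and *Ifit1bl2* are close relatives of *Ifit3* and *Ifit1*.

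In mm10 the 6 genes covered 99.3 kb of chromosome 19, from 34550694 to 34650009. *Ifit2* (ENSMUSG00000045932, 34550694 to 34576419), *Ifit3* (ENSMUSG00000074896, 34583531 to 34588731), *Ifit3b* (ENSMUSG00000062488, 34607970 to 34613401) and *Ifit1* (ENSMUSG00000034459, 34640871 to 34650009) lie on the plus strand. *Ifit1bl1* (ENSMUSG00000079339, 34592891 to 34601956) and *Ifit1bl2* (ENSMUSG00000067297, 34617049 to 34640743) lie on the minus strand. The annotated proteins were 463 residues long for IFIT1, 470 for IFIT2, 403 for IFIT3 and for IFIT3B, 470 for IFIT1BL1 and 466 for IFIT1BL2. The coding sequences of *Ifit3* and *Ifit3b* were identical at 1201 of 1212 bases (99.1%). Those of *Ifit1bl1* and *Ifit1bl2* were identical at 88.3% of aligned bases, *Ifit1* shared 77.4% with *Ifit1bl1* and 77.1% with *Ifit1bl2*, and the other pairs shared 60.5% to 66.9%.

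The sequences before the gene starts are shown because these genes were higher together and are known for their ISREs. All 6 genes matched the RefSeq windows of GRCm38.p6, which run from 250 bases before to 50 bases after each start. The ISRE core was searched as GAAANNGAA on both strands, and its matches are in capitals. Each sequence is printed 5′ to 3′ on the strand of its gene, and ends at the base before the start.
Ifit3 (chr19:34583279-34583528, plus strand): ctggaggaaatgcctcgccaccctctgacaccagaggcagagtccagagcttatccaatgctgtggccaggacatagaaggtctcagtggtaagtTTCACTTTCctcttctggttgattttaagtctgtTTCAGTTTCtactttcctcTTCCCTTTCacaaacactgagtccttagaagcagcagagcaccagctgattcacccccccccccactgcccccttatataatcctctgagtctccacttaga
Ifit3b (chr19:34607707-34607956, plus strand): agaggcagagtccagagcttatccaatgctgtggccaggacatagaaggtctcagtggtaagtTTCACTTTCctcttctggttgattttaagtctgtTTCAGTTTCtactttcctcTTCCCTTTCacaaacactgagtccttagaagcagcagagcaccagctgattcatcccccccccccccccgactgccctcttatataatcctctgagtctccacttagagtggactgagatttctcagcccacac
Ifit1bl1 (chr19:34601969-34602218, minus strand): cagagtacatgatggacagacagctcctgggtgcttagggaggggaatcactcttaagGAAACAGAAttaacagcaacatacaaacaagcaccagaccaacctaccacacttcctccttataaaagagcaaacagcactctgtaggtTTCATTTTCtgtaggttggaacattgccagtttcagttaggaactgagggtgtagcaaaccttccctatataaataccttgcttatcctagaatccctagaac
Ifit2 (chr19:34550444-34550693, plus strand): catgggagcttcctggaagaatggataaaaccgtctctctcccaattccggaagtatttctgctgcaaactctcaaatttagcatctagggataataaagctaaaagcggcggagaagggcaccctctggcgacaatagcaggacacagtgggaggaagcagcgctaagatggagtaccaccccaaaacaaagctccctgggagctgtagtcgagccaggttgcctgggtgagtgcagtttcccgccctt
Between Ifit1bl2 and Ifit1 (chr19:34640744-34640888, plus strand): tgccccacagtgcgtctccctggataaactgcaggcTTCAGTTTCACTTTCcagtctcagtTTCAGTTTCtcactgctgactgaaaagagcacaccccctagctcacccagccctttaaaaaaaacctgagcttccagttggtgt

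*Ifit1* and *Ifit1bl2* point away from each other, and the 145 bases between their starts hold 3 ISRE cores that lie before both genes. With -1 as the base before the gene start, the cores begin at -109, -103 and -84 for *Ifit1* and at -70, -51 and -45 for *Ifit1bl2*, and one pair of them overlap. *Ifit3* has 3 cores at -155, -121 and -102, and *Ifit3b* has 3 at -187, -153 and -134. The stretches printed for *Ifit3* and *Ifit3b* were identical at 216 of 218 aligned bases, with 64 gap bases. Each of the 2 windows of *Ifit1bl1* holds 2 cores, and the second annotated start of *Ifit1bl2* has 0. *Ifit2* has 0 cores in both of its windows. Of all 32851 windows, 8.56% hold at least 1 core and 0.624% hold 2 or more. The STAT site TTCNNNGAA, found in 8.30% of windows, matched once, at -241 of *Ifit2*. The BCL6 site TTCCTAGAA, a special case of the STAT site found in 0.411% of windows, had 0 matches. The TATA box TATAAA, found in 13.6% of windows, matched before *Ifit1bl1* and before the second start of *Ifit1bl2*. A match is only a match of letters, and a window without one says nothing about the factor.

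The genotype was checked first. Control replicates 1, 2 and 3 held *Cited2* at an FPKM of 71.7, 79.3 and 75.5, and the CITED2-deficient replicates at 9.27, 7.22 and 7.53. FPKM are fragments per kilobase of transcript, scaled to the size of the library, so they are levels per length. Values of single libraries are given in the order of the replicates throughout. Depth recovered from the steps between FPKM values was 17289286 to 18952077 fragments in control libraries and 22583995 to 26100410 in CITED2-deficient libraries, on average 1.34 times as many. Among the 11687 genes whose FPKM averaged 1 or more, 51.3% passed an adjusted p of 0.05 in limma, 16.7% higher and 34.6% lower in CITED2-deficient BMDMs. Of the genes that passed, 32.5% were higher, and 52.0% after each library was scaled by its median ratio to the other libraries. Fold changes are differences of mean log2(FPKM + 1), a scale on which changes of weakly expressed genes look smaller, and a lone value in parentheses after a gene or its levels is this log2 fold change. Genes outside the family are said to rise or fall only where they passed in limma. The labels do not say whether replicates came from separate mice, so p-values measure only the spread between these libraries, which may be technical. The macrophage markers *Adgre1*, *Csf1r*, *Cd68*, *Itgam*, *Fcgr1*, *Mertk*, *Lyz2* and *Cd14* were present in every library, with a summed FPKM of 5624 to 5694 in control and 5287 to 5367 in CITED2-deficient libraries. In limma 1 of these 8 was higher, *Fcgr1*, at 172 and 482, and *Cd68* and *Cd14* did not pass. The other 5 were lower, among them *Lyz2*, the locus that carries Cre, at 31.3 and 9.75. In bulk RNA, fewer cells of a type and less RNA per cell cannot be told apart.

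All 6 *Ifit* genes had a higher mean level in CITED2-deficient BMDMs, and together they went from an FPKM of 93.8 ± 3.07 to 1159 ± 92.2 (SD, n = 3 per group), 12.3 times the control level. Single control libraries summed to 92.0, 92.2 and 97.4, and CITED2-deficient ones to 1065, 1249 and 1162. The family took 0.0140% of all FPKM listed for control BMDMs and 0.175% for CITED2-deficient BMDMs. Resting control BMDMs already held RNA of the family, most of it from *Ifit2* and *Ifit3*.

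*Ifit2*, whose protein binds AU-rich RNA, was the most abundant member. Its FPKM was 39.3, 37.1 and 40.8 in control against 490, 600 and 541 in CITED2-deficient BMDMs. The means were 39.1 ± 1.86 and 544 ± 55.0 (SD, n = 3 per group), a ratio of 13.9 and a log2 fold change of 3.76. *Ifit3*, whose protein partners other IFITs, had 33.2, 35.8 and 37.7 against 386, 429 and 415. It came next to *Ifit2* in both groups, with 35.6 ± 2.25 and 410 ± 22.1 (SD, n = 3 per group) and a log2 fold change of 3.49. Which of these genes ranks first depends on the length used. The deposited FPKM of *Ifit2* fitted the mean (2259 bases) of an annotated transcript of 3818 bases and a short one of 700 bases. With the longer transcript alone its FPKM would be 23.1 ± 1.10 and 322 ± 32.6 (SD, n = 3 per group), below *Ifit3* in both groups, with the same ratio between groups.

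*Ifit1*, the sensor of RNA caps, had 12.8, 12.8 and 12.2 against 80.7, 92.1 and 86.1. Its means were 12.6 ± 0.355 and 86.3 ± 5.70 (SD, n = 3 per group), a ratio of 6.85 and a log2 fold change of 2.68, the smallest of the 5 members that passed the filter. *Ifit3b*, the near copy of *Ifit3*, had 4.79, 4.31 and 4.43 against 58.5, 66.7 and 62.8. Its means were 4.51 ± 0.249 and 62.7 ± 4.11 (SD, n = 3 per group), a ratio of 13.9 and a log2 fold change of 3.53. *Ifit1bl1*, a relative of *Ifit1*, had 1.80, 1.86 and 2.15 against 49.1, 60.5 and 56.7. It had the largest difference of the family, from 1.94 ± 0.189 to 55.4 ± 5.79 (SD, n = 3 per group), a ratio of 28.6 and a log2 fold change of 4.26. *Ifit1bl2* stayed low in both groups, at 0.0965, 0.211 and 0.0802 against 0.407, 0.444 and 0.419, and was not among the genes tested. These values correspond to 6, 12 and 5 against 34, 33 and 36 fragments, and to a ratio of mean FPKM of 3.28.

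In none of the 6 genes did the groups overlap, since even the lowest CITED2-deficient value was above the highest control value. The same was true of 19.0% of the genes tested, and the reverse of 40.9%, and because this contrast chose the members nothing is read from it. The median log2 fold change of the 6 genes was 3.51, and that of all tested genes was -0.10. A log2 fold change of at least 3 in the same direction was found for 0.222% of tested genes and one of at least 2 for 0.787%. In the ranking of tested genes by log2 fold change, *Ifit1bl1* was at rank 4, *Ifit2* at 8, *Ifit3b* at 12, *Ifit3* at 13 and *Ifit1* at 37.

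**Figure D1:**
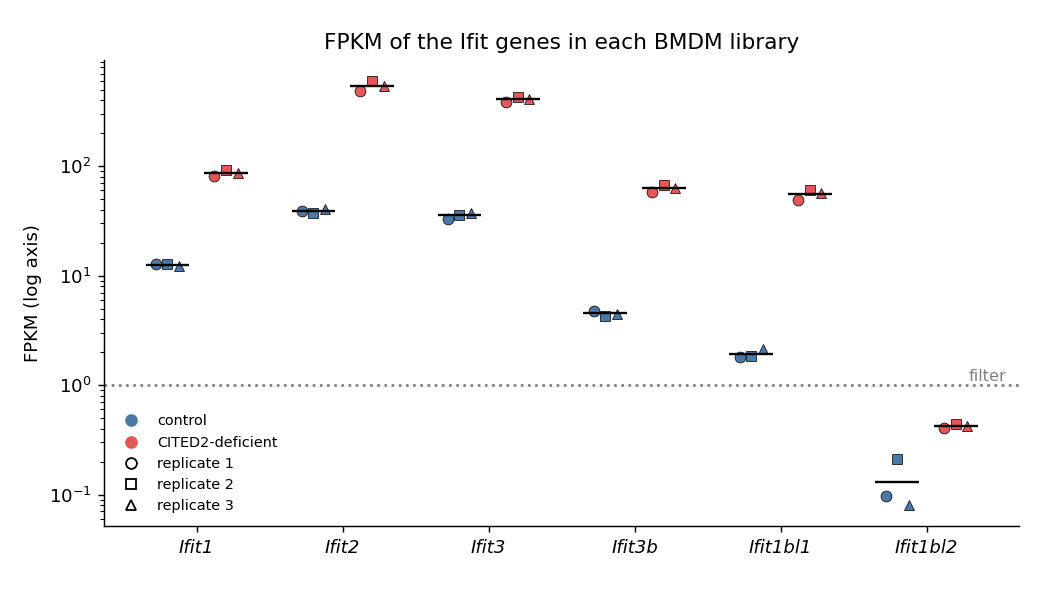
FPKM (log axis) of the 6 Ifit genes in each library, with 3 control (blue) and 3 CITED2-deficient (red) libraries, marker shapes for replicates and a line at each group mean. The groups do not overlap for any gene, and Ifit1bl2 lies below the dotted line at a mean FPKM of 1 used as a filter.

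**Figure D2:**
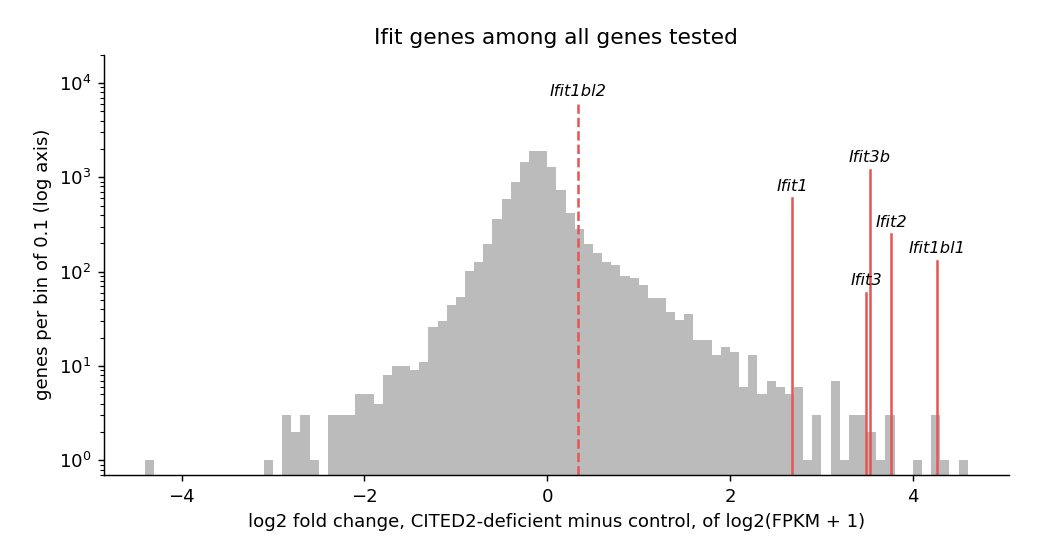
Number of genes (log axis) by log2 fold change of log2(FPKM + 1), CITED2-deficient minus control, for the 11687 genes tested, with red lines at the Ifit genes (dashed for Ifit1bl2, which was not tested). Of the Ifit genes tested, Ifit1 at 2.68 is nearest to the bulk and Ifit1bl1 at 4.26 is farthest from it.

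Since *Ifit3* and *Ifit3b* are so similar, the ability of the reads to tell them apart was considered. Of all 75-base windows of the *Ifit3* transcript, 41.1% also occur in *Ifit3b*, and 35.7% of those of *Ifit3b* occur in *Ifit3*. No source used here gives the read length, so 75 bases is only an example. The recovered fragments of *Ifit3* (1095, 1080 and 1246 against 17116, 16917 and 18904) and *Ifit3b* (181, 149 and 168 against 2974, 3014 and 3278) were whole numbers, so the deposited values hold no fractions of shared fragments. Whether fragments from shared stretches went to the wrong copy could not be read from the FPKM, and the levels of this pair are uncertain in that respect. *Ifit1bl2* shared 4.07% of its windows with *Ifit1* and 1.28% with *Ifit1bl1*, which matters more for a gene with as few fragments. Windows of *Ifit2* occurred in no other member.

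The makeup of the family differed between the groups. *Ifit1* gave 13.5% ± 0.801 of the family FPKM in control and 7.45% ± 0.111 in CITED2-deficient BMDMs (SD, n = 3 per group), while *Ifit1bl1* went from 2.06% ± 0.133 to 4.78% ± 0.144. The level of *Ifit1bl1* over that of *Ifit1* was 0.141, 0.145 and 0.177 against 0.609, 0.657 and 0.659. *Ifit2* went from 41.7% ± 1.25 to 46.9% ± 1.05 and *Ifit3* from 37.9% ± 1.54 to 35.4% ± 0.973. *Ifit3b* over *Ifit3* was 0.127 ± 0.0146 in control and 0.153 ± 0.00231 in CITED2-deficient BMDMs (SD, n = 3 per group). *Ifit2* and *Ifit3* thus made up most of the family in either group. Ratios between genes use the deposited lengths, but the change of a ratio between groups does not depend on them.

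Within the CITED2-deficient group the *Ifit* genes shared an order of the libraries. In all 6 genes replicate 1 was lowest, replicate 3 was in the middle and replicate 2 was highest, also after median-ratio scaling. For *Ifit1bl2* this order rests on only 34, 33 and 36 fragments. Of all tested genes, 15.4% had this order, and 18.3% after the scaling. The highest library exceeded the lowest by a factor of 1.09 (*Ifit1bl2*) to 1.23 (*Ifit1bl1*), far less than the difference between the groups. *Cited2* had the opposite order there, highest in replicate 1. The control libraries had no order shared by all 6 genes. Members of 1 library share its preparation and depth, so the shared order counts as 1 observation of 3 libraries and not as 6.

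**Figure D3:**
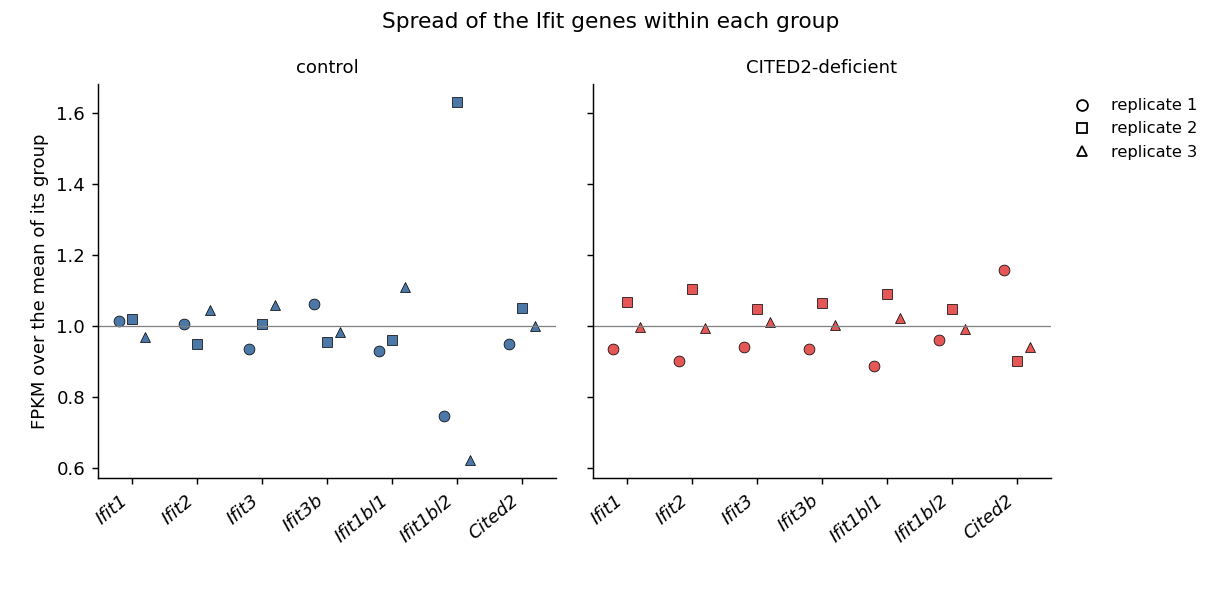
FPKM of each Ifit gene and of Cited2 divided by the mean of its group, for 3 control libraries (left) and 3 CITED2-deficient libraries (right), with marker shapes for replicates. In the CITED2-deficient group replicate 1 is lowest and replicate 2 highest for all 6 Ifit genes and the reverse holds for Cited2, while Ifit1bl2 scatters in the control group with its 5 to 12 fragments.

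Markers of other cells moved with the genotype. For the counts below, 16.7% of all tested genes were higher and 34.6% lower. All 10 stromal markers (*Col1a1*, *Col1a2*, *Col3a1*, *Dcn*, *Lum*, *Pdgfra*, *Pdgfrb*, *Thy1*, *Postn* and *Acta2*) were detected, and 8 of 8 tested were higher in CITED2-deficient BMDMs in limma. *Lum* and *Thy1* were below the filter. *Postn* (means 0.394 and 3.47) and *Pdgfrb* (0.936 and 2.45) passed the filter only through the CITED2-deficient libraries, so their calls are given as description. The summed FPKM of the 10 stromal markers was 54.0 to 63.8 in control libraries and 599, 206 and 208 in CITED2-deficient replicates 1 to 3. Replicate 1 of that group had the most stromal RNA and the lowest *Ifit* levels of its group. Without that library the median log2 fold change of the *Ifit* genes was 3.56. Every CITED2-deficient library had a higher stromal sum than every control library, so stromal RNA and genotype cannot be told apart here. The 4 endothelial markers summed to 5.75 to 6.04 and 27.0 to 32.3, with *Kdr* at a mean of 4.26 and 27.5, and 2 of 3 tested were higher. *Cdh5* was among these, at means of 0.720 and 1.52, and passed the filter only through the CITED2-deficient libraries. Neutrophil and precursor markers summed to 727 to 795 and 658 to 777, with 1 of 7 tested higher and 5 lower. The most abundant, *S100a9*, did not pass, at means of 270 and 251. Among the 5 lower, *Mpo* went from 16.2 to 1.95 and *Elane* from 12.4 to 2.15. The 1 higher was *Ltf*, from 94.3 to 177. *Siglech*, a marker of the plasmacytoid dendritic cells that are strong producers of type I interferon, was near 0, at a mean FPKM of 0.180 in control and 0.192 in CITED2-deficient BMDMs. The whole list of plasmacytoid markers summed to 100 to 109 and 98.3 to 103, nearly all of it *Tcf4*, with 1 of 3 tested higher. Markers of conventional dendritic cells (0.516 to 0.789 and 1.36 to 1.74), T cells (6.60 to 7.66 and 4.16 to 5.77), B cells (2.10 to 3.00 and 1.74 to 2.61) and erythroid cells (0.170 to 1.12 and 0.126 to 0.157) had low sums. No marker listed was at 0 in all libraries. The part of these cells in the *Ifit* levels was not tested.

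The pathway that induces *Ifit* genes was followed from ligand to target, with lists of genes by role. Across 38 tested genes of the interferon pathway, 18 were higher and 12 lower in CITED2-deficient BMDMs by an adjusted p under 0.05 in limma, beside 16.7% and 34.6% of all tested genes. With median-ratio scaling, which moves the median of all tested genes from -0.10 to -0.0069, 23 were higher and 8 lower, beside 23.1% and 21.3% of all tested genes. The 2 ligand genes listed were *Ifnb1* and *Ifnk*. *Ifnb1*, the gene of interferon beta, was listed at 0 fragments in all 3 control libraries, which allows up to 3 in each, and at 5, 2 and 5 fragments in the CITED2-deficient libraries. *Ifnk* had 0 or 1 fragment in every library.

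Of 5 tested receptor chains 4 were lower and 0 higher in limma, beside 34.6% and 16.7% of all tested genes. *Ifnar1* and *Ifnar2*, the chains of the type I interferon receptor, fell from an FPKM of 117 ± 1.98 to 97.2 ± 3.83 and from 89.8 ± 0.490 to 72.6 ± 1.34 (SD, n = 3 per group). Their log2 fold changes were -0.27 and -0.30 (limma adjusted p = 0.00027 and 4.65e-05). After median-ratio scaling they shrank to -0.17 and -0.20, and both still passed. *Ifngr1*, a chain of the interferon gamma receptor, fell from 250 ± 3.59 to 132 ± 3.88 (log2 fold change -0.92, limma adjusted p = 3.02e-08). *Il10rb*, shared by the receptors of interferon lambda and IL10, fell by 0.19 on the log2 scale, a call that median-ratio scaling ended at an adjusted p of 0.0686. *Ifngr2* was at 0.02 (limma adjusted p = 0.617) and passed as higher at 0.12 after that scaling.

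Of the 5 kinase and ISGF3 genes read here, 3 were higher and 1 was lower, beside 16.7% and 34.6% of all tested genes. *Stat2* rose from FPKM 60.4, 56.6 and 60.9 to 244, 268 and 260 (log2 fold change 2.10, SE 0.04, limma adjusted p = 1.45e-09). *Irf9*, the DNA-binding part of ISGF3, rose from 41.9 ± 1.63 to 67.3 ± 1.90 (SD, n = 3 per group), a log2 fold change of 0.67. For *Stat2* and *Irf9* the groups did not overlap, and the differences were smaller than those of *Ifit1*, *Ifit2*, *Ifit3*, *Ifit3b* and *Ifit1bl1*. The members were chosen by this contrast, so nothing is read from the comparison. The kinase gene *Jak2* rose by 0.29 on the log2 scale, and *Jak1* fell from 260 ± 3.23 to 242 ± 2.20 (-0.11), a call that median-ratio scaling ended (-0.0023, adjusted p = 0.954). *Tyk2* was at 0.11 (limma adjusted p = 0.0929) and passed as higher at 0.21 after that scaling.

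The interferon regulatory factors split, with 4 of 7 tested higher and 2 lower, beside 16.7% and 34.6% of all tested genes. *Irf7*, itself an interferon target and an amplifier of interferon production, rose from FPKM 73.7 ± 7.02 to 816 ± 35.5 (SD, n = 3 per group, log2 fold change 3.46, SE 0.06, limma adjusted p = 8.88e-10). *Irf1* rose from 73.0 ± 0.736 to 131 ± 12.8 (0.84). *Irf4* fell from 5.94 ± 0.286 to 2.09 ± 0.266 (-1.17) and *Irf3*, which can bind ISREs without interferon, from 52.6 ± 2.98 to 39.8 ± 1.80 (-0.39), each with SD over 3 libraries. *Irf8*, a factor of the myeloid lineage, was at -0.02 (limma adjusted p = 0.634) and at 0.081 after median-ratio scaling.

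Of 12 genes listed as inhibitors of the pathway 5 were higher and 3 lower, beside 16.7% and 34.6% of all tested genes. *Isg15*, a ubiquitin-like modifier, rose from FPKM 20.1, 19.5 and 22.9 to 175, 198 and 214 (log2 fold change 3.17, SE 0.08, limma adjusted p = 4.2e-09). *Usp18*, which removes ISG15 from proteins and dampens the type I receptor, rose from 21.9 ± 2.62 to 112 ± 5.30 (SD, n = 3 per group, log2 fold change 2.30). *Socs1*, an inhibitor of JAK kinases, rose from 0.587 ± 0.0761 to 1.67 ± 0.364 (0.74). It passed the filter only through the CITED2-deficient libraries. *Pias3*, an inhibitor of STAT proteins, fell from 20.6 ± 0.487 to 16.2 ± 0.356 (-0.33). The phosphatase genes *Ptpn1* (0.04) and *Ptpn2* (0.16) did not pass in limma, and both passed after median-ratio scaling. Of 9 sensors and adaptors 6 were higher and 2 lower, beside the same shares of all tested genes. The genes of the RNA sensors RIG-I, MDA5 and LGP2 rose together, *Ddx58* from 45.7 ± 4.15 to 154 ± 7.13 (1.73), *Ifih1* from 16.4 ± 0.640 to 56.7 ± 3.32 (1.72) and *Dhx58* from 52.1 ± 1.45 to 183 ± 12.4 (1.79), each with SD over 3 libraries. *Mb21d1*, the DNA sensor cGAS, rose from 3.88 ± 0.516 to 7.23 ± 0.462 (0.76). *Tbk1*, the kinase downstream of these sensors, had a mean FPKM of 107 in both groups, and passed as higher at 0.11 after median-ratio scaling.

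Enzymes of the RNA cap, by which IFIT1 recognizes RNA, and subunits of eIF3, which IFIT proteins bind, gave small differences. The enzymes that build or remove messenger caps had 1 of 6 tested genes lower and 0 higher in limma, beside 34.6% and 16.7% of all tested genes. Only 1 of the 6 had an unadjusted p under 0.05. That gene was *Dxo*, which removes incomplete caps, from an FPKM of 25.6 ± 1.51 to 20.5 ± 0.580 (SD, n = 3 per group, log2 fold change -0.31, limma adjusted p = 0.00134). The methyltransferase genes *Pcif1* (-0.05) and *Rnmt* (0.03) did not pass. Subunits of eIF3 had 9 of 13 tested genes lower and 0 higher in limma, where 34.6% of all tested genes were lower, with a median log2 fold change of -0.16 against -0.10 for all tested genes. *Eif3f* (-0.35), *Eif3i* (-0.28), *Eif3k* (-0.28) and *Eif3m* (-0.23) fell most, and *Eif3c* (-0.02) and *Eif3g* (-0.06) did not pass. After median-ratio scaling 4 of the 13 were lower, beside 21.3% of all tested genes, and 0 higher, and 5 had an unadjusted p under 0.05.

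**Figure D4:**
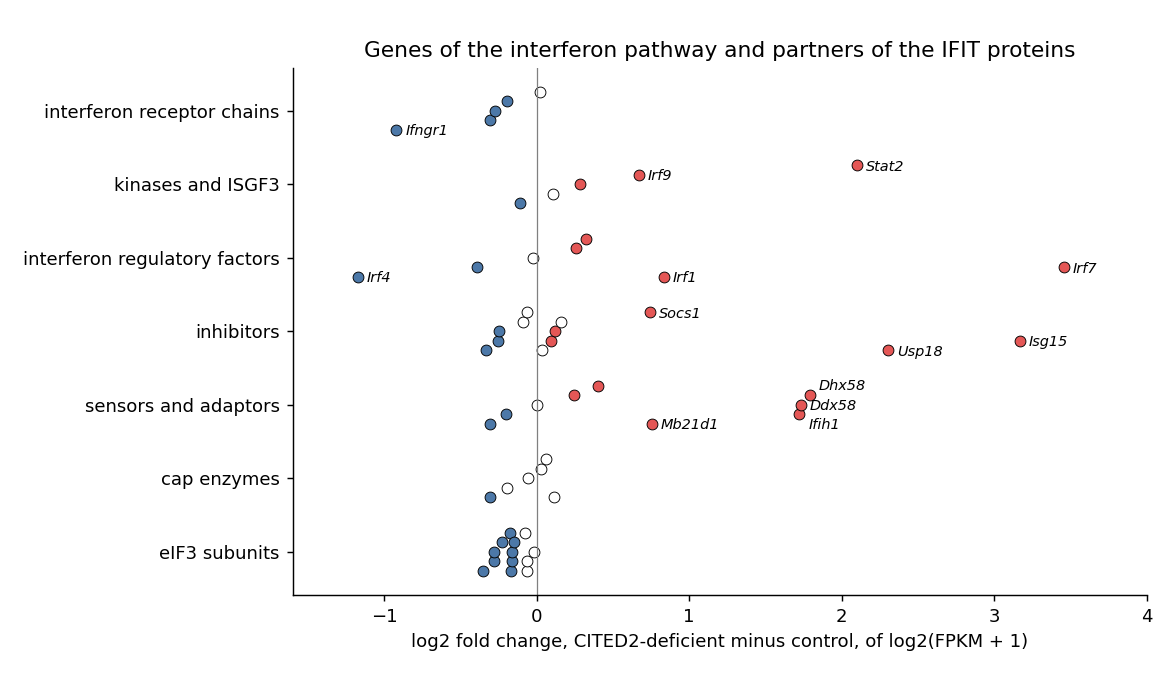
Log2 fold change of log2(FPKM + 1), CITED2-deficient minus control, of tested genes of the interferon pathway, cap enzymes and eIF3 subunits, 1 row per role. Points are filled red (higher) or blue (lower) where the adjusted p from limma is under 0.05 and open otherwise. Of the receptor chains Ifngr2 lies at 0.02 and the others below 0, while Irf7 (3.46), Isg15 (3.17), Usp18 (2.30) and Stat2 (2.10) lie farthest to the right, and eIF3 subunits lie between -0.35 and -0.02.

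Genes around the cluster were read to see whether the difference was shared by its neighbors. Within 1 Mb of the cluster 14 genes were listed and 9 tested, of which 4 were higher and 2 lower, or 5 and 1 after median-ratio scaling. Over all tested genes 16.7% were higher and 34.6% lower (51.3% passed), and 23.1% and 21.3% after the scaling (44.4% passed). *Ch25h*, whose enzyme makes an antiviral oxysterol, rose from FPKM 0.157, 0.300 and 0.156 to 1.37, 1.87 and 2.67 (log2 fold change 1.28, SE 0.18, limma adjusted p = 0.000408). *Acta2*, smooth muscle actin and a member of the stromal list, rose from 12.1 ± 0.841 to 40.3 ± 10.4 (SD, n = 3 per group, log2 fold change 1.63), was highest in CITED2-deficient replicate 1 at 52.3 and was at 1.43 without it. The lipase gene *Lipn* rose from 0.919 ± 0.209 to 2.14 ± 0.508 (0.70). *Pank1*, a kinase gene of coenzyme A synthesis, fell from 2.23 ± 0.223 to 0.948 ± 0.0705 (-0.73). For *Ch25h* (control mean 0.204), *Lipn* and *Pank1* the mean of the lower group was below 1. These genes passed the filter only through their higher group, so their calls are given as description. *Lipa*, the lysosomal acid lipase, was the most abundant neighbor, at 864 ± 16.1 and 913 ± 12.3 (0.08, limma adjusted p = 0.0303). *Fas*, a death receptor, fell from 4.39 ± 0.997 to 2.90 ± 0.0811 (-0.45, limma adjusted p = 0.0226). *Lipo3* (-0.18), *Stambpl1* (0.16) and *Kif20b* (-0.03) did not pass. The calls of *Fas* and *Lipa* were each lost when any of control replicates 1 and 3 and CITED2-deficient replicate 1 was left out, that of *Fas* also without CITED2-deficient replicate 3 and that of *Lipa* without replicate 2, and *Stambpl1* passed without control replicate 2 or CITED2-deficient replicate 1. The differences of the 5 tested *Ifit* genes, from 2.68 to 4.26, were all above that of any tested neighbor. Since this contrast chose the members, nothing is read from that.

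**Figure D5:**
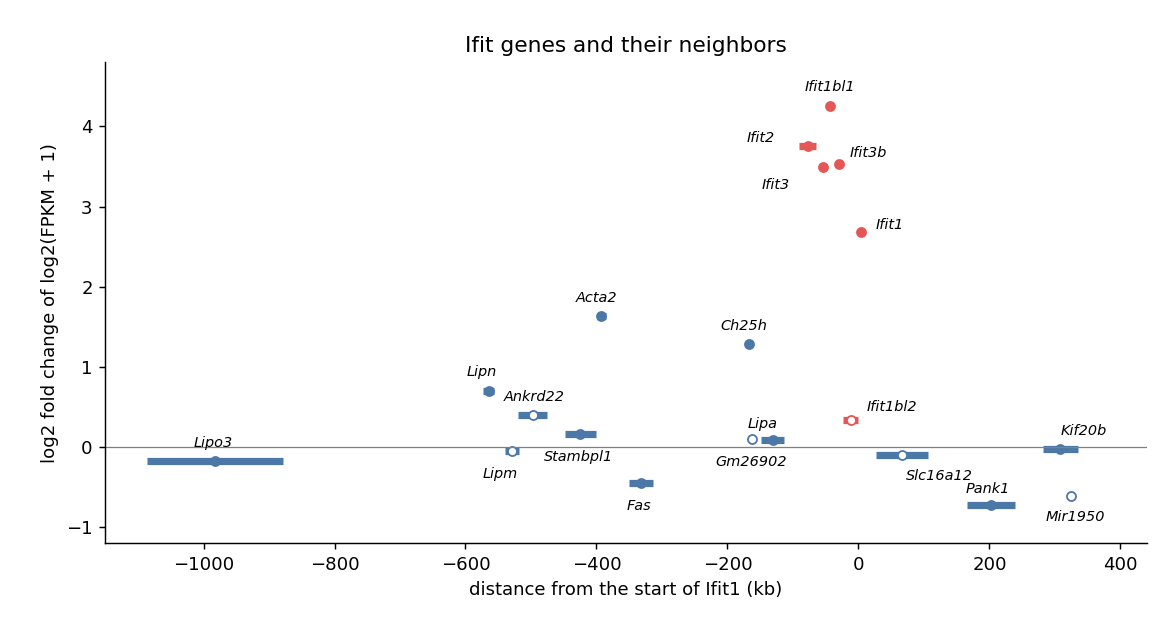
Log2 fold change of log2(FPKM + 1) of the 6 Ifit genes (red) and the 14 listed genes within 1 Mb (blue), each drawn as a bar over its length with a point at its middle, against distance from the start of Ifit1 in kb, with open points for genes below the FPKM filter. Ifit genes other than Ifit1bl2 stand between 2.68 and 4.26, Acta2 (1.63) and Ch25h (1.28) follow, and the other neighbors lie between -0.73 and 0.70.

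Genes with the most similar pattern were found by the Euclidean distance between log2(FPKM + 1), less its control mean, and the mean of the 5 tested *Ifit* genes over the 6 libraries. The nearest were *Irf7* (distance 0.232), *Gm6545* (0.254), *Oasl1* (0.255), *Rsad2* (0.320) and *H2-Q6* (0.385). *Oasl1*, an antiviral protein of the oligoadenylate synthetase family, went from an FPKM of 13.7, 12.7 and 14.9 to 145, 163 and 163. *Rsad2*, the antiviral enzyme viperin, went from 18.0, 18.8 and 19.2 to 181, 221 and 204. In all 5 genes the CITED2-deficient libraries had the order seen in the *Ifit* genes, which is part of what the distance measures. *H2-Q6* belongs to a group of very similar class I MHC genes, so fragments could have been divided among relatives. The members are part of the mean they were measured against, and their own distances from it were 0.112 for *Ifit3b*, 0.145 for *Ifit3*, 0.382 for *Ifit2*, 1.24 for *Ifit1bl1* and 1.50 for *Ifit1*.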

How the data were processed

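Total RNA of 3 control and 3 CITED2-deficient BMDM libraries was measured. The authors depleted ribosomal RNA, made stranded libraries and aligned the reads to mm10 with STAR. They deposited FPKM values, 1 per gene and library, which Cuffdiff computed with a GENCODE annotation. Cufflinks is also named in the submitters' processing notes. No source used here gives the versions or the annotation release.

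Genes were matched by identifier to GENCODE vM21 (22220 of 22248). FPKM times mean transcript length gave fragments that were whole within 0.02 in all 6 libraries for 63.5% of matched genes, which set the depth of each library. For *Ifit1bl1* and *Ifit1bl2* the nearest length that gave whole numbers was taken (2204 for 2196.5 annotated bases, and 3292.5 for 3367). The filter kept genes whose FPKM averaged 1 or more over all 6 libraries, including genes below 1 in 1 group. These were compared as log2(FPKM + 1) by limma (version 3.58.1, R version 4.3.3), with the trend option and a Benjamini-Hochberg threshold of 0.05. The Cuffdiff test was not run, since it starts from alignments. The smallest exact permutation p that 3 against 3 libraries allow is 0.1. The fit was tested on simulated data.

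The 6 members, the gene lists and the tests were chosen with earlier results of these data known. Named genes are the members, *Cited2*, in each role list up to 4 genes that passed with the largest change and up to 2 that did not with the highest mean FPKM, neighbors that passed the filter, and the 5 genes most like the members. A gene of the pathway list is not reported here and was left out of its counts. Marker genes, *Ifnb1* and *Ifnk* were named beside these. As alternatives, the pseudocount was set to 0.1 or 0.5, the filter was dropped or raised to 5, and libraries were scaled by quantiles or by median ratios. Fits were also made without the trend, with array weights, with a replicate block, without single libraries, and for neighbors within 2 Mb. Limma-voom was run on the recovered fragments, rounded and scaled by a trimmed mean. The longest transcript as length was chosen after the data had been seen. Motifs were searched in RefSeq windows of GRCm38.p6, and proteins are given by length only.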

Additional observations from a re-analysis of the deposited data

How the results depend on the processing

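The median log2 fold change of the 6 *Ifit* genes (3.51) was 3.65 with a pseudocount of 0.1, 3.61 after median-ratio scaling and 3.47 to 3.56 without one library. *Ifit1bl2*, the lowest member, went from 0.34 to 1.23 with a pseudocount of 0.1. Limma-voom on recovered fragments gave no value for *Ifit1bl2*, which was below the filter. The count of cap and eIF3 genes that passed was 10, and 5 after median-ratio scaling and in limma-voom, and 9 to 10 without one library. The count of neighbors was 6, and 2 with a mean FPKM of at least 5, and 4 to 7 without one library. Pathway genes that passed numbered 30, and 27 to 29 without one library, and all genes 5994, and 5226 to 5467 without one library. In limma-voom 23 pathway genes were higher and 8 lower. Of all genes that passed, 32.5% were higher, 52.0% after median-ratio scaling and 51.7% in limma-voom. Over the fold changes of single genes in all alternatives, 711 values kept their direction and call or stayed within the spread of replicates. A call was lost by 19 and gained by 18, 15 moved further and 18 changed sign. The counts and the family median given above are not in this tally.

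Genes near 0 changed sign. With median-ratio scaling and in limma-voom, respectively, *Irf8* was at 0.081 and 0.081, *Pcif1* at 0.048 and 0.045, *Eif3c* at 0.085 and 0.086, *Eif3g* at 0.038 and 0.037, and *Kif20b* at 0.050 and 0.053. *Kif20b* was at 0.029 after quantile normalization and at -0.12 to 0.087 without one library. Without one library *Irf8* ranged from -0.052 to 0.016, *Tbk1* from -0.014 to 0.018 and *Rnmt* from -0.025 to 0.092. Irf8 was at 0.016, *Tbk1* at -0.014 and *Rnmt* at -0.019 without CITED2-deficient replicate 1, *Tbk1* at -0.0035 without control replicate 3, *Rnmt* at -0.025 and *Kif20b* at 0.023 without control replicate 2, and *Kif20b* at 0.087 without CITED2-deficient replicate 3. The cause was not tested, except that the 2 scalings move all genes up together.

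Same-numbered libraries did not deviate together (correlations 0.014, 0.0078 and 0.040 of residuals). No pairing by number was seen, which 3 libraries per group could not exclude. A replicate block gave 5708 genes in all and ended only the call of *Lipa* (limma adjusted p = 0.0527) among the genes named. Depth limits *Ifnb1* and *Ifit1bl2*, whose values rest on few fragments, and the control levels of *Ch25h* and *Socs1* were also low.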
